A study of Mus musculus with 6 samples.

Results

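Cardiac macrophages of different origin carry different surface and secreted proteins, and 10 genes that mark them were read from a table of 44792 gene symbols. A set of 6 marks resident macrophages (Lyve1, Timd4, Folr2, Cd163, F13a1 and Mrc1), and a set of 4 marks recruited or antigen-presenting cells (Ccr2, Cx3cr1, Mgl2 and Clec10a). The genes were chosen by name, but with the measured R193H to wild type differences in these hearts already seen, so their fold changes are a description. RNA came from the hearts of 6 untreated C57BL/6 mice aged 3 months. The wild type group had 3 mice, and the other 3 carried R193H, a mutation of the thin filament protein cTnI (cardiac troponin I). Zygosity, sex and the region of the heart are not given in the labels. Libraries held 14736067 to 21852210 counts, and p-values measure the spread between these hearts only.

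Macrophages that enter the heart before birth maintain themselves there, and those with Timd4, Lyve1 and Folr2 receive little input from the blood. Cells with Ccr2 descend from monocytes that follow chemokines into the tissue. Few of the markers are exclusive: Lyve1 is also a gene of lymphatic endothelium, F13a1 of platelets, Cx3cr1 of some resident macrophages and natural killer cells, and Mgl2 and Clec10a of dendritic cells. In RNA of whole tissue, fewer cells of a type and less RNA per cell cannot be told apart.

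Mgl2 (chr11:70130329-70137550, plus strand) and Clec10a (chr11:70156197-70170834, plus strand) are neighbouring genes for galactose-type C-type lectins, with coordinates from GENCODE M21 on GRCm38. Their main coding sequences are 999 and 915 bases long and are identical at 833 of 915 aligned bases (91.0%). The longest identical stretch, of 183 bases, is shown with 30 aligned bases on each side because a read inside it fits both genes equally. With these flanks, the 243 bases shown lie across exons at chr11:70136307-70136729 in Mgl2 and chr11:70169792-70170219 in Clec10a, both on the plus strand. Capitals mark the 5 bases that differ.
Mgl2: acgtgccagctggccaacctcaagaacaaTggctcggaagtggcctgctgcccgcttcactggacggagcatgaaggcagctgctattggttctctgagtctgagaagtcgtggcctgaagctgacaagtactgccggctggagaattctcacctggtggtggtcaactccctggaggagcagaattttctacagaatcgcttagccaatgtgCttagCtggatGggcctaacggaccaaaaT
Clec10a: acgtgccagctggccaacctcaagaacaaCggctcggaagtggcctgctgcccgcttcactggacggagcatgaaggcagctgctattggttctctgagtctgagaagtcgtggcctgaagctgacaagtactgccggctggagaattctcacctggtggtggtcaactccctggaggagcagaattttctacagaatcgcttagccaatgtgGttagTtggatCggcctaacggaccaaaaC
Of the 50-base words in their annotated transcripts, 13.1% in Mgl2 and 9.02% in Clec10a also occur in another gene. How shared reads were counted is not given in the sources used here, so the split between Mgl2 and Clec10a is uncertain.

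Among the other members this share was 0 in Lyve1, Timd4 and Mrc1 and at most 1.91%, in Ccr2, apart from Folr2. In Folr2 it was 52.6%, because the exons of Gm10602 on the opposite strand overlap it. Whether counting used strand is not known, so reads of Folr2 and Gm10602 cannot be told apart. Exons of F13a1 and Cx3cr1 likewise overlap Gm30489 and Gm33858 on the opposite strand.

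R193H replicate 2 stood apart from the other hearts over all genes. On the first principal component of all genes, with 27.8% of the variance, it scored 41.6 while the other hearts scored -22.0 to 1.19. It held the highest level of 9 of the 10 members, and of 23.2% of all genes tested. The other hearts held the highest level of 13.9% (R193H replicate 1), 14.7% (R193H replicate 3), 14.9%, 18% and 15.3% (wild type replicates 1 to 3) of genes.

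All 10 markers had a higher mean in R193H hearts, with larger differences for the recruited set. Log2 fold changes ran from 0.13 to 0.50 over the 6 resident markers (median 0.25) and from 0.72 to 1.56 over the 4 recruited markers (median 1.17). Of all 14370 genes tested, 49.9% had a higher mean, and their median was -0.00036. With edgeR's quasi-likelihood test, 0 of the 10 passed an adjusted p of 0.05, beside 0.00696% of all genes in either direction and 0% in the higher direction. At an unadjusted p under 0.05, Folr2, Ccr2, Cx3cr1, Mgl2 and Clec10a were higher, as were 3.22% of genes. Mgl2 passed the adjusted threshold in DESeq2, beside 0.292% of genes, and in edgeR without a filter on low counts, beside 0.16%. All 3 R193H hearts exceeded all 3 wild type hearts for Folr2, Cx3cr1, Mgl2 and Clec10a, a pattern found in 6.02% of genes, and the reverse was found for 0 members and 5.8% of genes. Since the genes were put forward on this contrast, nothing is read from these shares.

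**Figure D1:**
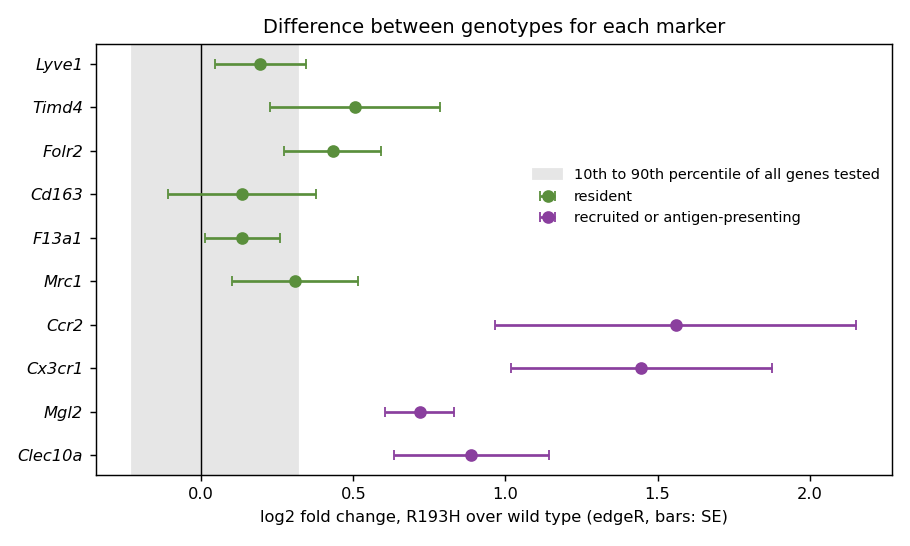
Log2 fold change of each marker, R193H over wild type, from edgeR on 3 hearts per genotype, with bars of 1 standard error (SE). The grey band spans the 10th to 90th percentile of all genes tested; the 4 recruited markers lie at 0.72 or above, and the 6 resident markers at 0.50 or below.

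Among the recruited markers, Mgl2 had the smallest fold change and the tightest groups. It measured 17.2, 18.6 and 17.7 CPM (counts relative to library size, scaled by the trimmed mean of M values, TMM) in wild type replicates 1, 2 and 3, and 29.05, 33.6 and 25.3 CPM in R193H replicates 1, 2 and 3. The groups did not overlap. The edgeR fold change was 0.72 on the log2 scale (SE 0.11, adjusted p = 0.361), and 0.61 without R193H replicate 2. Its adjusted p was 0.00157 in DESeq2, 0.00111 in edgeR without the filter and 0.0244 in edgeR without R193H replicate 3.

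Clec10a, the paralogue of Mgl2, was scarcer. Its levels were 2.48, 3.03 and 2.15 CPM in wild type and 4.45, 6.22 and 3.49 CPM in R193H hearts, in replicate order. Every R193H heart exceeded every wild type heart. In edgeR the log2 fold change was 0.89 (SE 0.25, adjusted p = 0.722), from counts of 35 to 136 per heart, and 0.64 without R193H replicate 2.

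Ccr2 (chr9:124101950-124113557, plus strand) encodes the receptor for Ccl2, Ccl7 and Ccl12, which draw monocytes into tissue. It stood at 3.41, 1.82 and 1.05 CPM in wild type and 6.38, 9.104 and 2.56 CPM in R193H hearts. R193H replicate 3 was below wild type replicate 1, so the groups overlapped. Ccr2 had the largest log2 fold change of the 10, 1.56, and the largest SE, 0.59 (edgeR adjusted p = 0.835). These levels rest on 21 to 199 counts per heart, and the fold change was 1.14 without R193H replicate 2 and 2.08 without wild type replicate 1.

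Cx3cr1 (chr9:119901616-120069879, minus strand) encodes the receptor for fractalkine, a chemokine held on endothelial cells. Wild type hearts had 2.06, 2.49 and 1.45 CPM and R193H hearts 4.86, 8.65 and 2.75 CPM. The groups did not overlap, although R193H replicate 3 came close to wild type replicate 2. The edgeR log2 fold change was 1.45 (SE 0.43, adjusted p = 0.722), and 0.94 without R193H replicate 2.

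**Figure D2:**
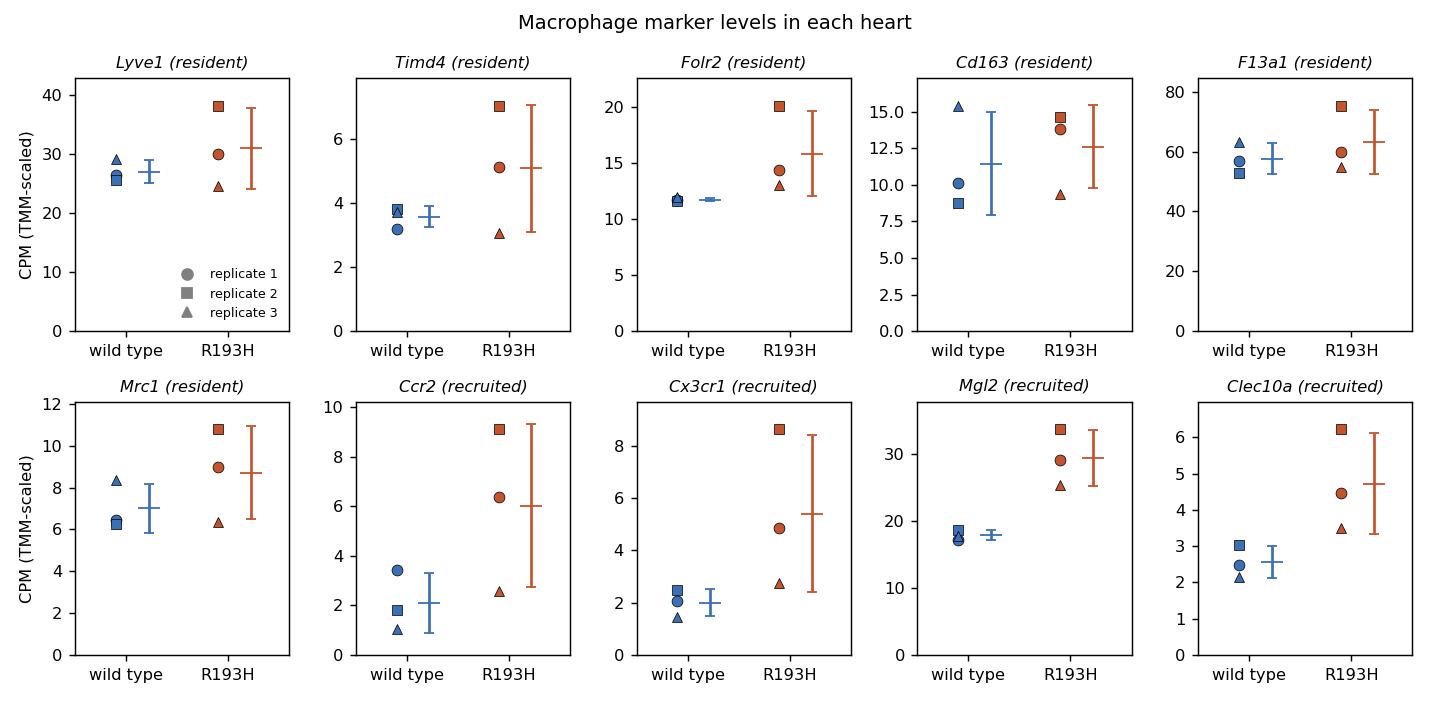
Level of each marker in each heart, in CPM on axes that start at 0, with the mean and SD of each genotype (n = 3). R193H replicate 2 is the highest heart for every marker except Cd163.

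Lyve1 (chr7:110850607-110863239, minus strand), a hyaluronan receptor, was the most abundant resident marker per kilobase in wild type hearts. It measured 26.3, 25.5 and 29.2 CPM in wild type and 30.04, 38.2 and 24.6 CPM in R193H hearts. The R193H hearts included both the highest and the lowest value, so the wild type range lay inside theirs. In edgeR the log2 fold change was 0.19 (SE 0.15, adjusted p = 0.9004), and 0.018 without R193H replicate 2.

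Timd4 (chr11:46810800-46844332, plus strand) encodes a receptor for phosphatidylserine, the lipid that dying cells expose. Its levels were 3.19, 3.82 and 3.71 CPM in wild type and 5.13, 7.05 and 3.07 CPM in R193H hearts. As with Lyve1, R193H replicate 3 was the lowest heart and R193H replicate 2 the highest. The edgeR log2 fold change of 0.50 (SE 0.28, adjusted p = 0.892) was 0.20 without R193H replicate 2 and 0.77 without R193H replicate 3.

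Folr2 (chr7:101839988-101857194, minus strand), folate receptor beta, was the only resident marker whose groups did not overlap. It stood at 11.7, 11.6 and 11.97 CPM in wild type and 14.4, 20.2 and 13.1 CPM in R193H hearts. The wild type hearts were close together, and R193H replicate 2 was far above the rest. In edgeR the log2 fold change was 0.43 (SE 0.16, adjusted p = 0.781), and 0.22 without R193H replicate 2.

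Cd163 (chr6:124304656-124330527, plus strand), the scavenger receptor for haemoglobin bound to haptoglobin, was highest in a wild type heart. It measured 10.1, 8.79 and 15.4 CPM in wild type and 13.8, 14.6 and 9.36 CPM in R193H hearts, which overlapped widely. The log2 fold change of 0.13 (SE 0.24) turned to -0.027 without wild type replicate 2 and was 0.42 without wild type replicate 3.

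F13a1 (chr13:36867178-37050244, minus strand), the catalytic subunit of coagulation factor XIII, gave 56.9, 52.97 and 63.2 CPM in wild type and 59.8, 75.4 and 54.95 CPM in R193H hearts. Only R193H replicate 2 lay above the wild type range. The log2 fold change of 0.14 (SE 0.12) turned to -0.0068 without that heart.

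Mrc1 (chr2:14229392-14332057, plus strand), the mannose receptor, gave 6.46, 6.24 and 8.36 CPM in wild type and 8.99, 10.8 and 6.38 CPM in R193H hearts. R193H replicate 3 lay within the wild type range and the other R193H hearts above it. The log2 fold change was 0.31 (SE 0.21), 0.13 without R193H replicate 2 and 0.50 without R193H replicate 3.

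Leaving out R193H replicate 2 lowered both set medians, from 0.25 to 0.073 for the resident and from 1.17 to 0.79 for the recruited markers. Leaving out wild type replicate 3 gave a resident median of 0.43, and leaving out R193H replicate 3 gave 0.42. The recruited median reached 1.42 without R193H replicate 3.

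**Figure D3:**
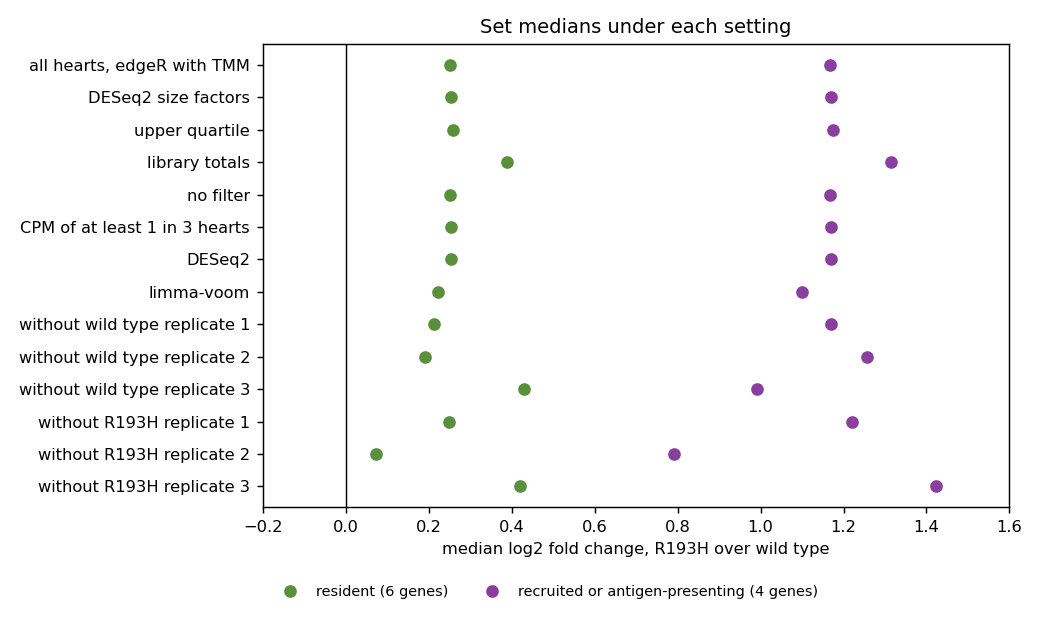
Median log2 fold change of the resident and recruited markers under each setting, R193H over wild type. The recruited median is the larger in every setting shown, 0.79 to 1.42 against 0.073 to 0.43.

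The balance of the sets was also taken within each heart, as the mean log2 CPM of the recruited minus that of the resident markers. It was -1.55, -1.58 and -2.36 in wild type and -0.99, -0.82 and -1.26 in R193H hearts, in replicate order. In each R193H heart the recruited level was closer to the resident level than in any wild type heart. The means were -1.83 ± 0.46 and -1.02 ± 0.22 (SD, n = 3 each), a difference of 0.81, which was not tested because the genes were picked on this contrast. It was 0.70 without R193H replicate 2 and 0.54 without wild type replicate 3, the heart with the lowest Ccr2, Cx3cr1 and Clec10a.

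General macrophage genes were also higher in mean. All 18 of that list were tested, 17 had higher means and Mertk a lower one (-0.070, SE 0.11), with a median log2 fold change of 0.53 and 0 past the threshold in edgeR in either direction. Every R193H heart exceeded every wild type heart for 11 of the 18, beside 6.02% of all genes tested. First by p were the complement genes C1qa (0.58, SE 0.12) and C1qb (0.70, SE 0.14) and the IgG receptor gene Fcgr1 (1.09, SE 0.23). The 18 genes summed to 465 to 528 CPM in wild type and 558 to 774 CPM in R193H hearts.

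Each member was then set against the mean log2 CPM of these 18 genes in the same heart. The difference between genotypes was below 0 for all 6 resident markers, from -0.42 for F13a1 to -0.12 for Timd4, and above 0 for all 4 recruited markers, from 0.16 for Mgl2 to 0.90 for Ccr2. The mean of the 18 genes was itself 0.55 higher in R193H hearts, so a gene with a smaller difference falls below 0. The 90th percentile of log2 fold change over all genes tested was 0.32, so most genes would also fall below 0. Nothing is read from these signs, which follow from the fold changes already seen. Lyve1 stood 1.005, 0.95 and 1.02 above the general level in wild type and 0.49, 0.82 and 0.55 above it in R193H hearts. F13a1 stood 2.11, 2.002 and 2.13 above it against 1.48, 1.80 and 1.70. For Lyve1 and F13a1 every R193H heart was below every wild type heart on this scale, and the other members overlapped between genotypes. The share of all genes with this pattern on this scale was not computed, so nothing is read from it. The mean of the 18 genes did not overlap either, at -0.048 to 0.087 in wild type and 0.31 to 0.67 in R193H hearts, relative to its wild type mean. Timd4 turned to 0.074 without R193H replicate 3, and the other members kept their sign with each heart left out. Their size moved: without R193H replicate 2 the difference was 0.58 for Ccr2, 0.38 for Cx3cr1, 0.13 for Clec10a, -0.27 for Folr2 and -0.33 for Timd4. Without wild type replicate 3 it was 0.47 for Ccr2, 0.48 for Cx3cr1, 0.13 for Clec10a, -0.20 for Cd163 and -0.17 for Mrc1. Wild type replicate 2 moved Clec10a to 0.43 and Timd4 to -0.056 when left out, R193H replicate 1 moved Folr2 to -0.030, and R193H replicate 3 moved Mrc1 to -0.17.

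**Figure D4:**
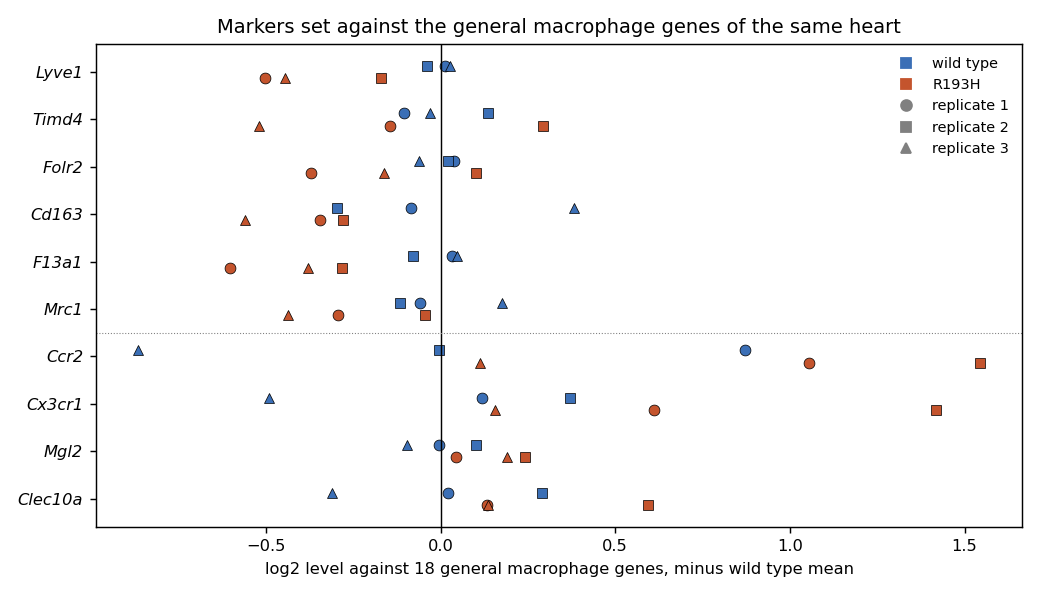
Log2 level of each marker minus the mean of the 18 general macrophage genes in the same heart, relative to the wild type mean, with 1 point per heart. The R193H means lie at -0.42 to -0.12 for the resident markers above the dotted line and at 0.16 to 0.90 for the recruited markers below it. The mean of the 18 genes was itself 0.55 higher in R193H hearts.

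Of 15 other genes of the resident programme, 14 were tested, 13 had higher means, the median was 0.089 and 0 passed in edgeR. First by p were the growth factor gene Igf1 (0.42, SE 0.14), the transcription factor gene Maf (0.33, SE 0.12) and the carbonyl reductase gene Cbr2 (0.36, SE 0.17). Vsig4, a complement receptor gene, had the lower mean and the largest difference in size of the 14 (-0.83, SE 0.74). The median was -0.031 without R193H replicate 2 and 0.19 without R193H replicate 1. The cells that supplied these RNAs were not determined in whole tissue, so the median does not measure resident macrophages alone.

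A further list held genes of antigen presentation by major histocompatibility complex (MHC) class II and of dendritic cells. Of its 17 genes, 13 were tested, 12 had higher means, the median was 1.04 and 0 passed in edgeR. Ciita, the master regulator of class II genes, came first by p (1.11, SE 0.26), with 3.33, 4.61 and 3.21 CPM in wild type and 10.3, 8.51 and 5.26 CPM in R193H hearts. H2-Aa, a class II chain (1.17, SE 0.28), and H2-DMb1, which helps to load peptides (1.22, SE 0.34), followed. Every R193H heart exceeded every wild type heart for 6 of the 13, Ciita and H2-Aa among them, beside 6.02% of all genes tested. R193H replicate 1, not replicate 2, was the highest heart for Ciita and H2-Aa. Dendritic cell genes of the list were mixed, with Cd209a at 0.020 (SE 0.55), Flt3 at 0.65 (SE 0.55) and Ccr7 at -0.65 (SE 0.76).

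Of 12 monocyte genes, 8 were tested, 6 had higher and 2 lower means, the median was 0.40, and 0 passed in edgeR. Spn (0.92, SE 0.42), the versican gene Vcan (0.44, SE 0.28) and the chemokine receptor gene Ccr1 (0.71, SE 0.45) came first by p. All 8 overlapped between genotypes, and the median was 0.22 without R193H replicate 2.

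**Figure D5:**
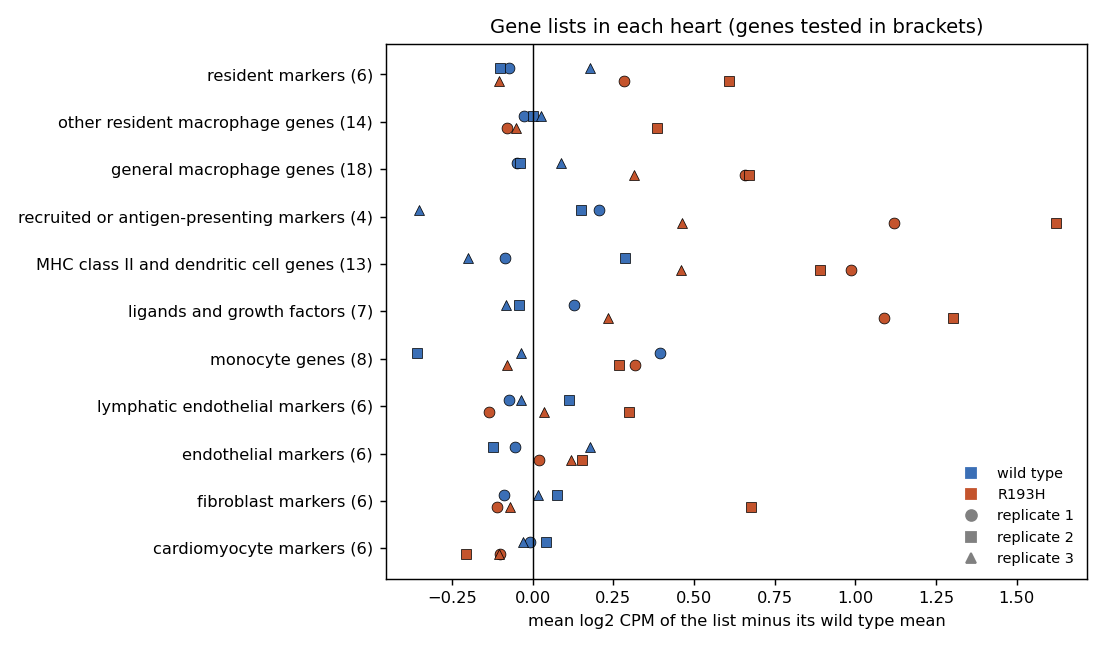
Mean log2 CPM of each gene list in each heart, relative to the wild type mean of the list. R193H hearts reach 0.46 to 1.62 for the recruited and -0.10 to 0.61 for the resident markers.

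Of 8 ligands and growth factors for these cells, 7 were tested, all had higher means (median 0.90) and 0 passed in edgeR. Ccl7 measured 0.497, 0.788 and 0.801 CPM in wild type and 2.65, 3.71 and 1.304 CPM in R193H hearts (1.85, SE 0.42). Ccl12 measured 0.7096, 0.303 and 0.301 CPM against 2.56, 2.52 and 0.699 CPM (2.17, SE 0.58), with R193H replicate 3 just below wild type replicate 1. Ccl2 (0.90, SE 0.44) and Ccl8 (0.93, SE 0.77) are chemokines of the same family. Among R193H hearts, replicate 3 had the least of all 7 tested ligands and growth factors. It also had the least of every member, resident ones included, so its low values are not particular to Ccr2 and its ligands. Cx3cl1, which encodes fractalkine, measured 9.51, 11.3 and 10.2 CPM in wild type and 13.5, 14.9 and 12.01 CPM in R193H hearts (0.38, SE 0.13). Csf1 (0.34, SE 0.18) and Il34 (0.37, SE 0.19) encode the ligands of the macrophage survival receptor Csf1r. Every R193H heart exceeded every wild type heart for Ccl7, Ccl2, Cx3cl1 and Il34, beside 6.02% of all genes tested, and Csf2 had 1 count over all hearts. The median was 0.40 without R193H replicate 1, 0.46 without R193H replicate 2, 0.59 without wild type replicate 2 and 0.58 without wild type replicate 3. It was lowest, 0.38, with a filter of at least 1 CPM in 3 hearts.

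Lists built on what the members bind, clear or respond to had medians from -0.067 to 0.083, and 0 of their tested genes passed in edgeR. The hyaluronan enzymes (5 of 7 tested, median 0.061) bear on the ligand of Lyve1, and Has2 (0.53, SE 0.68), Hyal2 (0.078, SE 0.11) and Tmem2 (0.061, SE 0.13) came first by p. In haem and haemoglobin handling (9 of 10 tested), haptoglobin itself, Hp, came first (-0.89, SE 0.36), followed by Hmox1 (0.52, SE 0.22) and Ftl1 (0.15, SE 0.14). Hp was lower in every R193H heart than in every wild type heart, as were 5.8% of all genes tested. Its counts were 18 to 50 per heart. In apoptotic cell clearance (9 of 12 tested), Stab2 (0.52, SE 0.45), Mfge8 (0.083, SE 0.077) and Axl (0.17, SE 0.17) came first. In the interleukin 4 response (8 of 12 tested, median -0.030), Il4ra (0.44, SE 0.15) came before Il13ra1 (-0.12, SE 0.12) and Pparg (-0.14, SE 0.15), and Il13 had 0 counts in all hearts. None of these 4 lists kept the sign of its median in every setting. Without R193H replicate 2 the median was -0.17 for hyaluronan and -0.051 for apoptotic cell clearance, and without R193H replicate 1 it was 0.0042 for haem handling and 0.066 for the interleukin 4 response. Scaling by library totals, which moves the median of all genes to 0.13, gave 0.19, 0.059, 0.21 and 0.10 in the order listed.

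Markers of other cells that carry the members were set beside them, and their part in the members' differences was not tested. The 6 lymphatic endothelial genes, which bear on Lyve1, had a median of -0.011 (0.17 without R193H replicate 1 and 0.12 without wild type replicate 2) and summed to 175 to 195 CPM in wild type and 179.9 to 201 CPM in R193H hearts, with Prox1 at -0.095, SE 0.16, Flt4 at -0.047, SE 0.12 and Pdpn at 0.45, SE 0.30. Platelet genes, which bear on F13a1, had 3 of 6 tested with lower means (median -1.33) and summed to 1.45 to 22.2 CPM against 1.62 to 5.87 CPM. Their median was 0.036 without wild type replicate 1. Of 6 natural killer cell genes, which bear on Cx3cr1, only Nkg7 was tested (1.80, SE 0.58). It stood at 0.07096 to 0.364 CPM in wild type and 0.559 to 1.39 CPM in R193H hearts. These levels rest on only 1 to 31 counts per heart, so they are imprecise. T and B cell genes had 6 of 8 tested (median 0.62) and summed to 3.52 to 11.7 CPM and 5.402 to 8.63 CPM.

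Among markers of the remaining cell types, fibroblast genes (6, median 0.21) were highest in R193H replicate 2, with a sum of 1564 CPM, and their median was -0.061 without it. Peritoneal and mesothelial genes (6 of 7 tested, median 0.88) were also highest there, at 163 CPM, with a median of 0.34 without it. Endothelial genes had a median of 0.097 and cardiomyocyte genes of -0.17, the latter with sums of 38245 to 40533 CPM in wild type and 34172 to 37338 CPM in R193H hearts. Atrial (-0.91), neutrophil (-1.33), red cell (-1.95) and mast cell and basophil genes (0.10) differed widely within a genotype. The red cell sum alone ran from 257 to 3094 CPM among wild type hearts. In all the lists of other cells, 0 genes passed in edgeR and no gene had 0 counts in every heart, and their part in the members' values was not tested.

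For comparison between members, CPM was divided by the length of each gene's merged exons in GENCODE M21. These levels are approximate, because the annotation used for counting is not known. In wild type hearts the order of levels was Lyve1 (9.25 CPM per kilobase), F13a1 (8.56), Mgl2 (8.51), Folr2 (7.61), Cd163 (2.097), Timd4 (1.64), Mrc1 (1.102), Clec10a (0.882), Cx3cr1 (0.444) and Ccr2 (0.309). Neighbours overlapped between hearts except Mgl2 with Folr2, Folr2 with Cd163, Timd4 with Mrc1, and Clec10a with Cx3cr1. In R193H hearts Mgl2 came first (14.002 CPM per kilobase), before Lyve1 (10.6), Folr2 (10.3) and F13a1 (9.403), and Ccr2 was again last (0.89004). There only F13a1 and Timd4 did not overlap as neighbours.

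The genes most like the members over the 6 hearts were sought among 11737 genes by root mean square distance of centred log2 CPM, with no test. Ccr2, whose own pattern had a size of 1.01, was nearest to Cd8a (0.32), its ligand Ccl12 (0.33) and Spn (0.34). Counts per heart were only 3 to 45 for Cd8a and 5 to 57 for Ccl12, so these patterns are imprecise. The resident mean (size 0.26) was nearest to Rhoc (0.020), Cbr2 (0.044) and Anxa1 (0.045), and Lyve1 (size 0.21) to Tagln2 (0.045), Tm9sf2 (0.049) and Tacc3 (0.050).

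The 250 bases before the start sites in RefSeq (GRCm38.p6) were searched on both strands, in 10 windows of 8 members. Lyve1 and Clec10a were not matched. GAGGAA, the core bound by the macrophage factor PU.1, was in 3 of the 10 windows (Mrc1, Mgl2 and F13a1) and in 23.3% of all 32851 windows of that length. TGCTGAC, a half-site of MAF factors, was before Timd4 and in 3.81% of all windows. The interferon-stimulated response element and the STAT6 site were in 0 of the 10 windows and in 2.98% and 5.85% of all. A match describes letters, not binding. The windows with a match that lie outside annotated exons are shown on the gene's strand, with matches in capitals, written as TTCCTC or GTCAGCA where they are on the opposite strand. For Mrc1 (plus strand) the window is chr2:14229164-14229391, for Timd4 (plus strand) chr11:46810549-46810785 and for F13a1 (minus strand) chr13:37050245-37050494, after 22 and 13 bases nearest the start site were left out for Mrc1 and Timd4.
Mrc1: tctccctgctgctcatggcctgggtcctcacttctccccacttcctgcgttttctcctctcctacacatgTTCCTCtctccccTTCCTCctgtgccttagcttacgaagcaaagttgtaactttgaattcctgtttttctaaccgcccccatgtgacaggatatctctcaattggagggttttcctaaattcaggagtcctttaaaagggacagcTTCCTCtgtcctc
Timd4: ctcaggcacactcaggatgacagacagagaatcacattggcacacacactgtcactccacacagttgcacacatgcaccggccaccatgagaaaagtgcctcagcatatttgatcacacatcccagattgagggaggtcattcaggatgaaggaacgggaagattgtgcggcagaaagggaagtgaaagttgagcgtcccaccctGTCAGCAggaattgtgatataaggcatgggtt
F13a1: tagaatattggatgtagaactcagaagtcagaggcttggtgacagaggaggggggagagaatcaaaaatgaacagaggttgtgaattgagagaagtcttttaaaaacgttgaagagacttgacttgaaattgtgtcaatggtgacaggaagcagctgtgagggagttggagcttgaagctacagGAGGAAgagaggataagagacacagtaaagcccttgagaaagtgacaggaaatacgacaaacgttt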

How the data were processed

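Gene expression was measured in 6 hearts, 3 per genotype. The authors deposited unnormalized whole-number read counts for 44792 gene symbols; per the submitters' processing notes, HISAT2 2.0.4 and GRCm38 were used. The counting program, strand setting and annotation are not stated in those notes or the labels. Columns were matched to hearts by sample title, and replicate numbers only name hearts.

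In R 4.3.3, edgeR 4.0.16 (filterByExpr, 14370 genes tested, TMM scaling, robust quasi-likelihood test, Benjamini-Hochberg adjustment over all genes, threshold 0.05) compared R193H with wild type. SE is the fold change over the square root of F, and log2 CPM used a prior count of 2. All 10 members passed the filter. A count of 0 allows up to 0.137 to 0.204 CPM (3 counts, counting error only). The fit was tested on simulated data.

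The members and all gene lists were chosen with earlier results of these data known, and no list was tested. Named genes are the members, the ligands, Prox1, Flt4 and Pdpn, the nearest 3 genes by pattern (the result for the recruited mean is not reported here), and the first 3 by p of each list on macrophages or on what the members bind; Nkg7 is the only tested gene of its list, and Mertk, Vsig4, Cd209a, Ccr7 and Flt3 were named after their values were seen. Alternatives were other scalings and filters, DESeq2 1.42.0, limma-voom (limma 3.58.1), a prior count of 0.5 and leaving out each heart; the other lists' values under these were added after seeing the data.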

Additional observations from a re-analysis of the deposited data

How the results depend on the processing

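The number of genes past the threshold was 1 in edgeR, 38 without a filter, 42 in DESeq2, and 3 to 21 with a heart left out. The number of members past it was 0 in edgeR, 1 without a filter, 1 in DESeq2 and 0 to 1 with a heart left out, each time Mgl2. With a heart left out, Cd163 ranged from -0.027 to 0.42 and F13a1 from -0.0068 to 0.24 in log2 fold change, so both changed sign; the other members kept theirs in every setting run. The cause was not tested. Scaling by library totals moved the median of all genes to 0.13, and the resident and recruited medians to 0.39 and 1.31. The difference between the sets within hearts was 0.80 to 0.83 with all hearts and 0.54 to 0.95 with a heart left out. The natural killer list had no gene left under the CPM filter and has no value there. With 3 hearts against 3, the smallest two-sided p of an exact permutation test is 0.1, so single values were not tested that way. Counts of 21 to 199 for Ccr2 and 29 to 189 for Cx3cr1 limit their precision. No paired analysis was possible because the labels give no replicate numbers shared between genotypes.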
